A study of Drosophila melanogaster with 2 samples.

Results

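The genes described here make fatty acids from acetyl-CoA, desaturate and activate them, or control that transcription programme in Drosophila melanogaster. They were chosen by symbol: a probe set belonged to the group where the array annotation named FASN1, FASN2, ACC, AcCoAS, ATPCL, Desat1, bgm or SREBP as its gene. These 8 genes had 9 probe sets, out of 12443 probe sets with a single gene symbol, which stood for 10845 genes. ACC had 2 probe sets and each other gene had 1.

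Transcripts were measured in heads of adult males of the inbred w1118 laboratory strain, written w118 in some labels, on Affymetrix DrosGenome1 arrays. The unexposed group was 1 array of heads at adult day 3, from flies kept in constant darkness in food bottles. The paraquat group was 1 array of heads, also at adult day 3, from flies of the same strain, sex and dark housing that were moved at adult day 2 to sucrose holding 15 mM paraquat for 30 h. Paraquat, a herbicide, undergoes redox cycling in cells and makes superoxide, and the study used it to profile the effect of oxidative stress. Each array was made from heads pooled from many flies, and no array of flies on plain sucrose was used here, so paraquat and the change of food cannot be told apart. With 1 array a group there is no replicate, no test and no p-value below.

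Fatty acids are built in the cytosol from acetyl-CoA, which ATP citrate lyase releases from citrate and acetyl-CoA synthetase makes from acetate. Acetyl-CoA carboxylase turns acetyl-CoA into malonyl-CoA, fatty acid synthase extends the chain at the cost of NADPH, desaturases add a double bond, and acyl-CoA synthetases attach coenzyme A to a finished or imported fatty acid so that it can be used. In flies this work is centred on the fat body, a tissue with functions of liver and adipose tissue that also lies in the head, and on oenocytes of the abdomen. SREBP is the membrane-bound transcription factor that switches on these genes; in flies, which make no sterols, its release is held back by phosphatidylethanolamine.

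Intensities were scaled to a common median of 825.2 over 13966 probe sets, and the 40th percentile of their mean intensity, 477.3, served as a floor. Probe sets at or above the floor on both arrays are called measured, and there were 7425 of them. Ratios are paraquat over unexposed on the log2 scale. The error after each ratio is 1 SE of array error, built from control probe sets, and intervals are 95% intervals of the same error, which leaves out the spread between flies and between RNA preparations. The labelled tissue carried its markers, since all 10 photoreceptor genes and 9 of the 10 neuronal genes with their own probe set were measured.

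Transcripts of the 6 measured enzyme genes of the group were lower on the paraquat array, while the SREBP transcript was higher. Of the 7 genes measured, 4 were at least 2-fold lower (bgm, FASN1, AcCoAS and ACC), and 8.22% of all measured probe sets were at least 2-fold lower. None was at least 2-fold higher, against 8.15% of all measured probe sets. The median log2 ratio of the 7 genes was -1.19, and that of all 7425 measured probe sets was 0.03. Among the 2322 probe sets that passed a floor at the 80th percentile, where intensities were nearer those of these genes, 6.72% were at least 2-fold lower and 5.68% at least 2-fold higher, against 3 and 0 of the 5 genes left. ATPCL and Desat1 were lower by less than 2-fold, and FASN2 was under the floor on both arrays.

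The enzymes that supply acetyl-CoA differed from each other in their ratios. ATPCL, ATP citrate lyase (probe set 143912_at), had an intensity of 21909 on the unexposed array and 17636 with paraquat. The paraquat array was the lower of the 2 by a factor of 1.24 (log2 -0.31 ± 0.12, 95% interval -0.55 to -0.07), and 28.3% of measured probe sets had a ratio at least as low. AcCoAS, which makes acetyl-CoA from acetate (probe set 153769_at), had an intensity of 60488 unexposed and 25097 with paraquat. It was 2.41-fold lower (log2 -1.27 ± 0.12, interval -1.5 to -1.04), a ratio reached or passed by 5.23% of measured probe sets. The log2 ratio of ATPCL lay above that of AcCoAS by 0.96 (interval 0.62 to 1.29), which is beyond array error.

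The enzymes that make malonyl-CoA and the chain were both more than 2-fold lower. ACC, the acetyl-CoA carboxylase (measured probe set 152407_at), read 23820 unexposed and 10446 with paraquat. It was 2.28-fold lower (log2 -1.19 ± 0.13), and its interval of -1.44 to -0.94 reached across the 2-fold line. The second ACC probe set (146782_at) read -799.7 unexposed and 137.7 with paraquat, under the floor on both arrays, so that the value of ACC rests on 1 probe set. FASN1, the fatty acid synthase of the fat body (probe set 152126_at), read 45074 unexposed and 12676 with paraquat. It was 3.56-fold lower (log2 -1.83 ± 0.12, interval -2.07 to -1.59), and 154 of the 7425 measured probe sets had a lower ratio. FASN2, a second fatty acid synthase known from oenocytes (probe set 151887_at), read 159.3 unexposed and -234.8 with paraquat. Both readings were below the highest absent control, that is, the brightest probe set for RNA that the sample does not hold, which stood at 446.5 and 533.2 on the 2 arrays, so no ratio is given for FASN2.

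**Figure D1:**
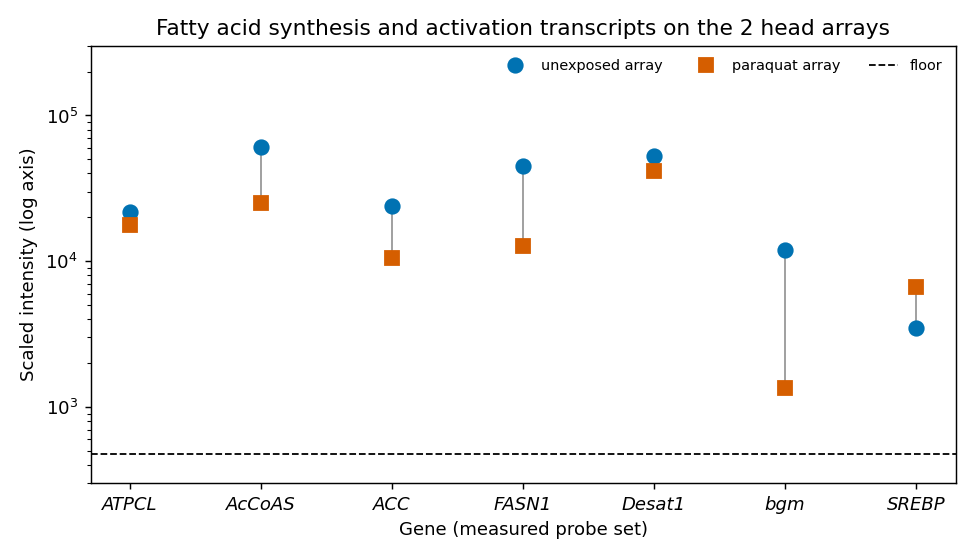
Scaled intensity (log axis) of the measured probe set of each of the 7 measured genes, in the order of the pathway with the regulator SREBP last. Circles are the unexposed array, squares the paraquat array, and the dashed line is the floor of 477.3. The square lies below the circle for 6 genes and above it for SREBP.

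Desat1, the delta-9 desaturase that supplies monounsaturated fatty acids for membranes and cuticular hydrocarbons (probe set 152911_at), read 52641 unexposed and 41450 with paraquat. The paraquat array was lower by a factor of 1.27 (log2 -0.34 ± 0.12, interval -0.57 to -0.12). With quantile normalization its ratio was -0.11 and the interval, -0.33 to 0.12, held 0. In the scaling used here 26.7% of measured probe sets had a ratio at least as low. The ratio of Desat1 lay above that of ACC by 0.84 (interval 0.51 to 1.18) and 0.03 below that of ATPCL, within array error.

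The lowest ratio of the group was that of a single gene for activation, bgm, and other acyl-CoA synthetases are described below. The gene bgm (bubblegum) encodes an acyl-CoA synthetase for long and very long chains, and flies without it are known for degeneration of the optic lobe. Its probe set (153318_at) read 11963 on the unexposed array and 1346 with paraquat. The paraquat value was 2.82 times the floor, nearer to it than any other measured value of the group, which widened the array error. The transcript was 8.89-fold lower (log2 -3.15 ± 0.40, interval -3.94 to -2.36), and 31 of 7425 measured probe sets had a lower ratio. The ratio of FASN1, the next in order, lay 1.32 above that of bgm (interval 0.49 to 2.15).

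SREBP, the regulator, stood on the other side of 0. Its probe set (143786_at) read 3463 unexposed and 6671 with paraquat, so that the paraquat array was the higher one. The transcript was 1.93-fold higher (log2 0.95 ± 0.20, interval 0.55 to 1.35), short of the 2-fold line, which lies inside its interval. A ratio at least as high was found in 9.27% of measured probe sets. The ratio of SREBP exceeded that of ATPCL, its neighbour in order, by 1.26 (interval 0.79 to 1.72), and that of FASN1 by 2.78 (interval 2.31 to 3.24). The array reads transcript and not the cleaved, active form of the protein.

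**Figure D2:**
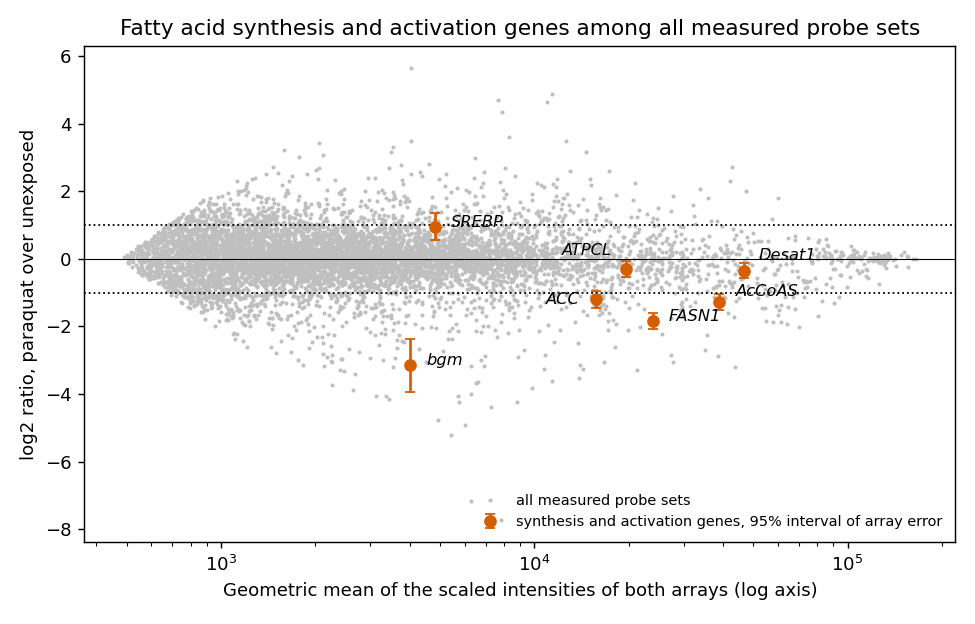
Log2 ratio, paraquat over unexposed, against the geometric mean of both scaled intensities (log axis) for all 7425 measured probe sets in grey, with the 7 measured genes in orange and bars for the 95% interval of array error. Dotted lines mark 2-fold. The genes bgm, FASN1, AcCoAS and ACC lie below the lower line, although the interval of ACC crosses it, and SREBP lies just under the upper line.

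In order of ratio the genes ran bgm, FASN1, AcCoAS, ACC, Desat1, ATPCL and SREBP. Among neighbours in that order, AcCoAS and ACC differed by 0.08 (interval -0.26 to 0.42) and Desat1 and ATPCL by 0.03 (interval -0.30 to 0.36), both within array error. The other neighbours were farther apart than their array error. For 3 of the 7 genes (bgm, FASN1 and AcCoAS) the whole interval lay beyond 2-fold lower, as it did for 2.8% of all measured probe sets. With quantile normalization and with loess this held for 2 genes, since the interval of AcCoAS then reached -0.85 and -0.96. The interval lay wholly below 0 for 6 of the 7 genes, against 14.8% of all measured probe sets, and for 5 with quantile normalization, where that of Desat1 held 0. It lay wholly above 0 for SREBP, as for 15% of all measured probe sets. Array error shrinks as intensity rises, so these shares depend on how bright a probe set is.

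Most markers of the head fat body, a tissue in which these enzymes are known to be abundant, were lower on the same array. Of the 7 listed markers that had their own probe set, 6 were measured and 5 of those were at least 2-fold lower. Their median log2 ratio was -2.79. Their summed intensity was 616208 on the unexposed array and 112188 with paraquat, and none was under the floor on both. The storage protein gene Lsp2 had a log2 ratio of -7.72 ± 0.97 and sxe2 one of -4.0 ± 0.35, and fit read 46083 unexposed and 165.4 with paraquat, under the floor there. The paraquat reading of Lsp2, 539.4, was close to the floor of 477.3 and to the highest absent control there, 533.2. The sixth measured marker, the lipid transfer particle gene Apoltp, was higher (0.45 ± 0.12, from 15237 to 20746). Their part in the ratios of the enzymes was not tested. In RNA from whole heads, fewer fat body cells and less of a transcript per cell cannot be told apart.

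Other cell type markers moved on the same array too. Haemocyte markers were all lower among the 6 measured, 4 of them at least 2-fold (median -1.25), NimC1 was under the floor on both arrays, and their summed intensity was 29805 unexposed and 12838 with paraquat. Among them were the collagen genes Col4a1 at -1.88 ± 0.30 and vkg at -1.68 ± 0.31. In the same list Hml (-0.70 ± 0.19) and Pxn (-0.91 ± 0.39) were lower by less than 2-fold. Of 5 measured muscle genes 3 were at least 2-fold lower (median -1.14, summed intensity of the list 173010 and 59876), with fln under the floor on both arrays. The lowest were the myosin light chain gene Mlc2 (-1.85 ± 0.12) and the troponin C gene TpnC41C (-1.59 ± 0.13). Of the 14 male reproductive tract genes with a probe set, a tissue outside the head, 3 were measured, all of them lower. Mst84Da at -1.58 ± 0.36 and Mst87F at -1.43 ± 0.31 were the lowest of these 3. Another 10 reached the floor on the unexposed array alone and Acp62F on neither. The largest bound among those 10 was that of Mst57Da, which read 9999 unexposed and -128.3 with paraquat. It was at least 18.8-fold lower when set against the highest absent control there. The summed intensity of the list was 47888 unexposed and 7749 with paraquat. The list of genes named for oenocyte expression had a summed intensity of 31464 unexposed and 19154 with paraquat. Whether its genes are expressed in oenocytes, or only there, was not checked. Cyp4g1, a P450 that makes cuticular hydrocarbons, was lower (log2 -3.06 ± 0.35), while spidey had a ratio of -0.37 ± 0.16. Cyp4g15 had a ratio of 0.07 ± 0.13 and read 10513 unexposed and 11044 with paraquat, a large part of both sums. FarO was under the floor on both arrays. The part of these cell types in the ratios of the enzymes was not tested.

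Markers of neurons and photoreceptors lay closer to 0. The neuronal median was -0.25 over 9 genes, with none past 2-fold and Rab3 (-0.60 ± 1.12) and unc-13 (0.54 ± 0.13) farthest from 0. The photoreceptor median was -0.10 over 10 genes, with eys (-1.29 ± 0.45) the 1 gene past 2-fold and chp next (-0.51 ± 0.12). The glial median was -0.81 over 7 genes, 3 at least 2-fold lower and 1 (loco, 1.84 ± 0.24) at least 2-fold higher, while wrapper read 2432 unexposed and 519.3 with paraquat, which is not above the highest absent control. Gut enzymes had a median of -0.35 over the 4 genes measured of 11 with a probe set, with Amy-d at 1.42 ± 0.23 and Mal-A1 at -1.12 ± 0.32. Another 4 gut enzyme genes were under the floor on both arrays, and 3 reached it on the unexposed array alone.

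**Figure D3:**
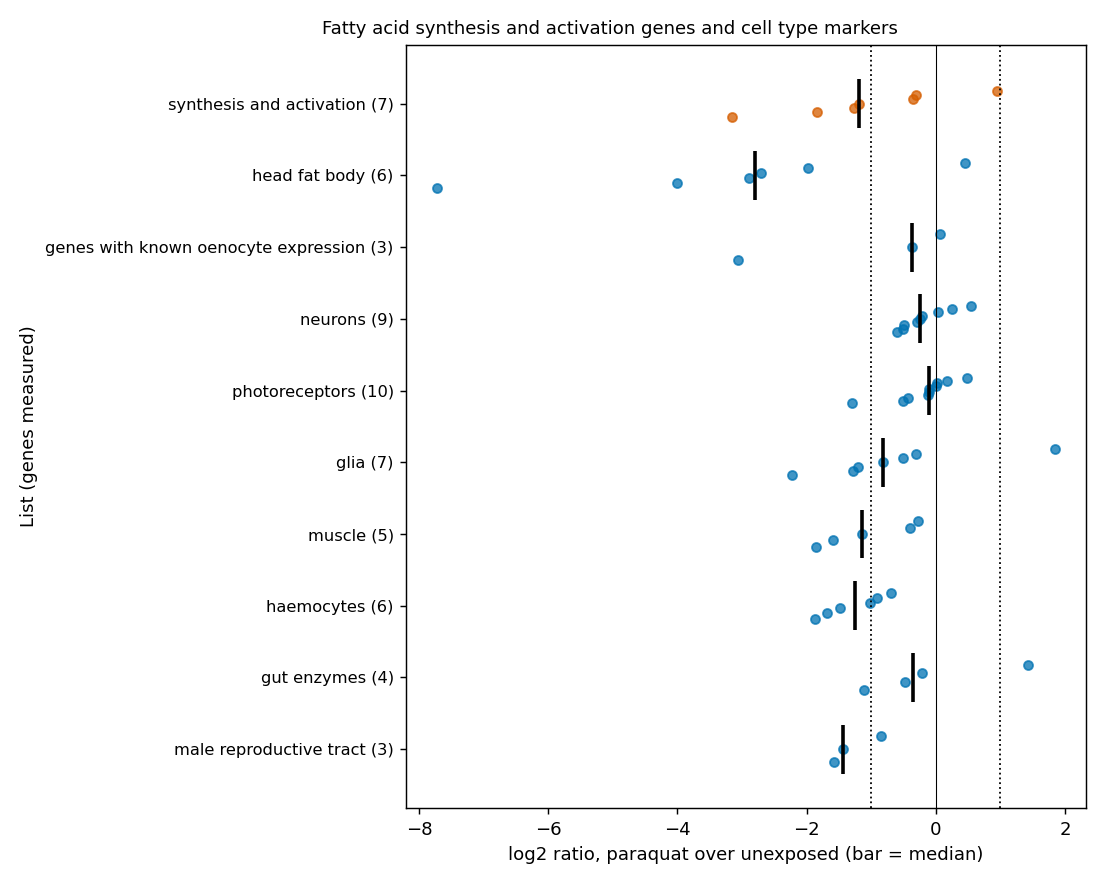
Log2 ratio, paraquat over unexposed, of each measured gene (1 point a gene) in the synthesis and activation group, in orange, and in the marker lists, in blue, with the number measured beside each name. Black bars are medians and dotted lines mark 2-fold. The head fat body median is -2.79, the synthesis and activation median -1.19, and the photoreceptor median -0.10.

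The enzymes next to the group in fatty acid metabolism were read for context from lists of the other known genes. Among other acyl-CoA synthetases, 3 of the 7 measured passed 2-fold lower and 0 passed 2-fold higher. Their median was -0.98, and it moved to -0.15 with the floor at the 80th percentile. The lowest were CG11407 (-1.67 ± 0.30), CG12512 (-1.23 ± 0.33), the long-chain synthetase gene Acsl (-1.08 ± 0.14, from 16964 to 8025) and CG3961 (-0.98 ± 0.44). The other 3 measured had ratios above 0, the highest in pdgy (0.77 ± 0.13, from 9821 to 16769). Fatp2 had 2 probe sets, neither of them measured. The probe set with the largest bound reached the floor on the paraquat array alone, where it was at least 2.86-fold higher. A probe set annotated Fatp, a symbol not in the list and not counted here, read 15884 unexposed and 10408 with paraquat (log2 -0.61). Of the 4 other desaturases measured, CG9747 was at least 2-fold lower (-2.02 ± 0.55), while Fad2 (-0.69 ± 0.98), CG8630 (-0.36 ± 0.27) and Desat2 (0.04 ± 0.43) were not past 2-fold. The median of these 4 was -0.53, and a 60th percentile floor moved it to -0.16. CG15531 reached the floor on the unexposed array alone and CG9743 on the paraquat array alone.

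Fatty acid elongases lengthen chains beyond the product of fatty acid synthase, and 7 of 8 measured had ratios below 0. The interval excluded 0 for bond, ELOVL and CG16904 alone and held 0 for the others. The median log2 ratio of all measured probe sets was 0.03. One of the 8 passed 2-fold lower, bond (-1.69 ± 0.33, from 5589 to 1727), and 0 passed 2-fold higher, and the median was -0.63 (-0.96 with the floor at the 60th percentile and -0.41 with a pseudocount in its place). ELOVL (-0.98 ± 0.31), CG16904 (-0.94 ± 0.44) and eloF (-0.75 ± 0.71) came next. Another 5 elongases were under the floor on both arrays, and 3 reached it on the unexposed array alone.

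The enzymes that feed the pathway with NADPH or carry its carbon were all lower by less than 2-fold. The 4 measured had a median of -0.71. The malic enzyme genes Men (-0.87 ± 0.26 over 2 probe sets) and Men-b (-0.79 ± 0.22 over 2 probe sets) make NADPH in the cytosol or mitochondria, as does Idh (-0.62 ± 0.12), and the malate dehydrogenase gene Mdh1 had a ratio of -0.35 ± 0.12. The citrate carrier gene sea, the citrate synthase gene kdn, Zw and Pgd lacked their own probe set.

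Among regulators beside SREBP, the 2 whose intervals excluded 0 were higher on the paraquat array. Of 3 measured, bigmax was at least 2-fold higher (1.26 ± 0.19, from 3637 to 8709), its sugar-sensing partner Mondo had a ratio of 0.48 ± 0.16, and the sugar-induced zinc finger gene sug was at least 2-fold lower (-1.12 ± 0.75, from 1679 to 771.6) with an interval of -2.58 to 0.34 that held 0. The median of the 3 was 0.48, and a 60th percentile floor moved it to 0.87. SCAP, which escorts the SREBP protein, and the protease gene S2P reached the floor on the paraquat array alone, at 762.2 and 603.5, both within 2 times the floor. The protease gene S1P was under it on both arrays. The list for phosphatidylethanolamine synthesis, which also holds genes of earlier steps, had a median of 0.04 over 5 genes (-0.037 with scaling on the spiked controls), with none past 2-fold. Pect, the rate-limiting enzyme of that synthesis, had the ratio farthest from 0 (0.52 ± 0.12). Pss (-0.46 ± 0.18), bbc (0.17 ± 0.15) and eas (0.04 ± 0.15) followed. PISD, also in the list, lacked its own probe set.

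Fatty acid breakdown and the separate mitochondrial synthesis pathway stayed within 2-fold among measured genes. Of 11 measured beta-oxidation genes none passed 2-fold in either direction, 6 had ratios below 0 and 5 above, and the median was -0.17 (-0.069 at a 60th percentile floor and 0.029 at an 80th percentile floor). The thiolase gene yip2 (0.98 ± 0.14) and the enoyl-CoA hydratase gene Echs1 (-0.70 ± 0.16) were farthest from 0, followed by the carnitine carrier gene colt (-0.61 ± 0.14) and CPT2 (0.41 ± 0.21). The acyl-CoA oxidase gene CG9527 read 2991 unexposed and 3.26 with paraquat, at least 5.61-fold lower when set against the highest absent control there. The 4 genes of mitochondrial fatty acid synthesis had a median of -0.04 (-0.31 with the floor at the 60th or 80th percentile), with CG12170 at -0.57 ± 0.25, beg at 0.55 ± 0.70, ND-ACP, the acyl carrier protein, at -0.31 ± 0.12 and CG16935 at 0.24 ± 0.30.

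**Figure D4:**
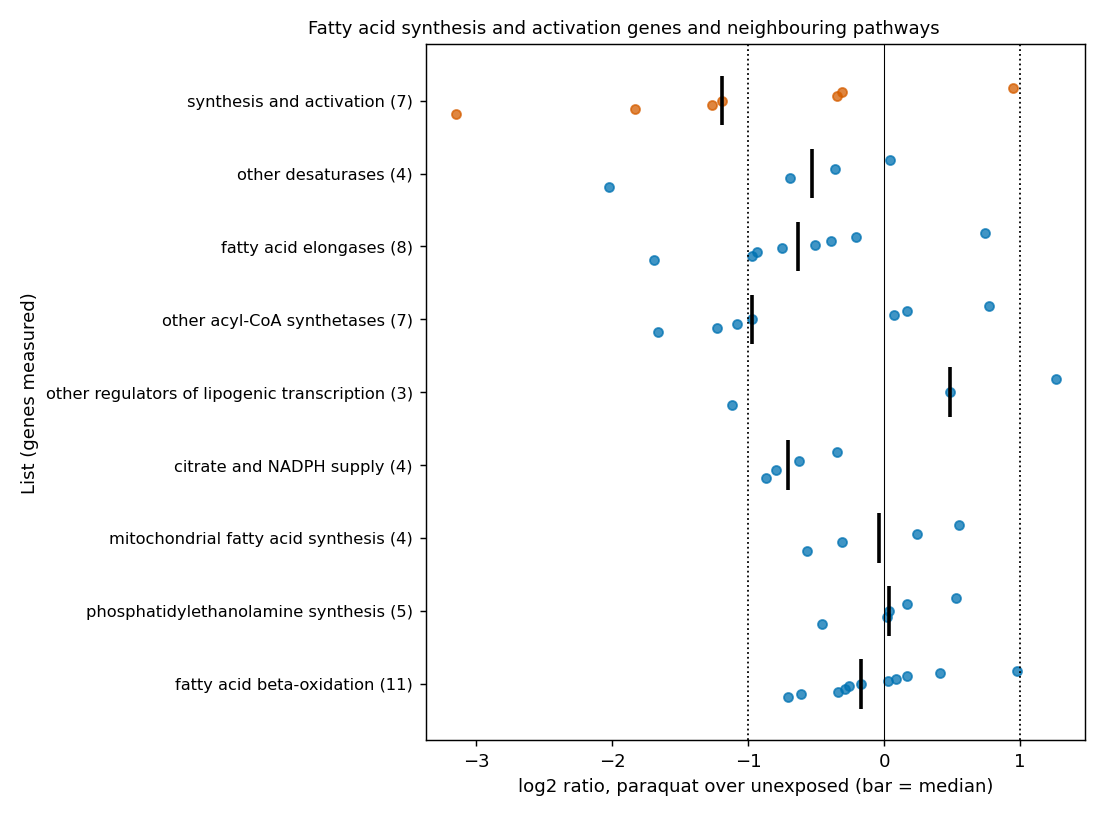
Log2 ratio, paraquat over unexposed, of each measured gene (1 point a gene) in the synthesis and activation group, in orange, and in the neighbouring pathway lists, in blue, with the number measured beside each name. Black bars are medians and dotted lines mark 2-fold. The medians run from -1.19 in the synthesis and activation group to -0.17 in beta-oxidation, 0.04 in phosphatidylethanolamine synthesis and 0.48 in the 3 other regulators.

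Control probe sets differed between the arrays as well. The 18S ribosomal RNA probe sets summed to 117323 on the unexposed array and 60213 with paraquat. The ratio of 3′ to 5′ signal, which rises as RNA or its copies shorten, was 15.3 unexposed and 11.8 with paraquat for actin, 2.74 and 2.48 for GAPDH, and 11.7 and 9.79 for eIF-4a. Their part in the ratios above was not tested.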

How the data were processed

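The labels' protocols describe poly(A) RNA, purified from total RNA, on 1 array a group, whereas the molecule label of both samples reads total RNA, and which was hybridised was not settled. The deposited file gives 1 linear intensity for each probe set and array, below 0 where background exceeded signal. The authors had scaled them so that the mean without the top and bottom 2% of probe sets is 2500, as the values show. The summarising software was not given in the sources used here. For the ratios, both arrays were rescaled to a common median (factors 1.01 unexposed, 0.99 paraquat), floored and taken to log2. Array error combined the SD of 46 absent control values (358.3) with the SD of log2 ratios of 9 spiked controls (0.12). The calculation was run on simulated data with noise drawn from the same control SDs, which cannot test whether that error fits real genes. Genes with several measured probe sets took the mean ratio. Where no probe set of a gene was measured, the probe set with the largest bound stood for the gene. The number of arrays limits the precision.

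Probe sets were named from the platform annotation of 2016 and matched to RefSeq Release 6 by gene identifier (12394 of 12443 single-symbol probe sets). Of 190 listed symbols, 159 had their own probe set, and 2 names of genes already listed counted once. The genes and lists were chosen with earlier results of these data known. Named were all 8 genes, up to 4 genes with the ratios farthest from 0 in each pathway list plus bounds of at least 4-fold, and up to 2 in each marker list. Named outside that rule are the genes given for being under the floor or without a probe set. So are Cyp4g15, Apoltp, pdgy, Fatp2, Fatp, Hml, Pxn and Mst57Da. With 2 arrays no likeness of pattern was computed. Alternatives were other scalings, floors and probe set rules. Python 3.11.15, pandas 2.3.3 and statsmodels 0.14.6 were used.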

Additional observations from a re-analysis of the deposited data

How the results depend on the processing

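The count of 4 genes at least 2-fold lower was kept in 8 of 9 alternatives and was 3 with the floor at the 80th percentile, where bgm and SREBP fell under the floor and 5 genes were left (6.72% of all measured probe sets were then at least 2-fold lower). No gene was at least 2-fold higher in any of the 9, with SREBP left out at the 80th percentile floor. Using the brightest probe set, or keeping genes at the floor, could not change these counts. Each measured gene of the group had 1 measured probe set, and none was under the floor on 1 array alone. The 60th percentile floor left every ratio of the group unchanged. SREBP ran from 0.86 to 0.98, bgm from -3.23 to -2.77, FASN1 from -1.90 to -1.70, AcCoAS from -1.34 to -1.08, ACC from -1.26 to -1.15, ATPCL from -0.39 to -0.25 and Desat1 from -0.42 to -0.11 (the last with quantile normalization, where its interval held 0). The group median was -1.08 with quantile normalization and -1.26 with scaling on the spiked controls, an alternative chosen after seeing the data. That scaling also moved the medians of phosphatidylethanolamine synthesis to -0.037 and beta-oxidation to -0.24. With the floor at the 60th percentile the medians were -0.16 for other desaturases, -0.96 for elongases, 0.87 for other regulators, -0.31 for mitochondrial synthesis and -0.069 for beta-oxidation. With the floor at the 80th percentile they were -0.15 for other acyl-CoA synthetases, -0.31 for mitochondrial synthesis and 0.029 for beta-oxidation. A pseudocount in place of the floor gave -0.41 for elongases and -0.78 for other acyl-CoA synthetases. Keeping genes at the floor gave -0.49 for other acyl-CoA synthetases and -0.21 for beta-oxidation. Higher floors test fewer genes; the cause of the other moves was not tested. No paired analysis was possible because each group held 1 array. FASN2 and the second ACC probe set were at background and limit what can be said of them.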
